A study of Mus musculus with 6 samples.

Results

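The 31 genes described here are transcriptional targets of the tumour suppressor p53, chosen by name from a list of known targets and looked up among the 55471 genes of the count table. RNA sequencing measured them in a cultured mouse undifferentiated pleomorphic sarcoma (UPS) line, a soft-tissue tumour line labelled as metastatic. There were 3 control libraries, labelled wild type, and 3 libraries labelled as knockout of Setd1a, which encodes a histone H3 lysine 4 methyltransferase. The titles add 1 tag to all controls (AAV2) and a number to all knockouts, with no meaning given, so whatever these mark cannot be told apart from the knockout. The labels do not say whether the replicates were separate cultures or whether the line is 1 clone, so a p-value reflects just the spread among these 6 libraries, which may be technical. The p53 genotype of the line is not given in the sources used here.

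The protein p53 is a transcription factor that is kept scarce by the ubiquitin ligase Mdm2 and accumulates after DNA damage and other stress. It binds paired copies of a short half-site in DNA and raises the transcription of genes that halt the cell cycle, trigger apoptosis or repair DNA, and also of Mdm2 and other genes that shut the response down again. In sarcomas the pathway is often disabled by mutation of p53 itself or by excess Mdm2. The members fall into 7 genes of cell cycle arrest and stress restraint, 13 of apoptosis, 5 of DNA repair, 3 of negative feedback and 3 others. Of the 31, 29 had enough counts to be tested; the death receptor gene Fas and the T-cell costimulatory ligand gene Cd80 did not.

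Promoter windows of RefSeq on GRCm38.p6, from 250 bases before to 50 after an annotated start, were at hand for 22 of the 31 members. The windows were searched on both strands for the p53 half-site, a motif of 10 bases whose fixed bases are CNNG, and for a pair of abutting half-sites with at most 2 mismatches outside those fixed bases. A pair was found in 3 of the 22 members (13.6%), among them the untested Cd80. Of the 20 tested members with a window, 2 had a pair (10.0%), against 0.446% of the 9644 tested genes with a window. At least 1 exact half-site was found in 10 of the 22 members (45.5%). It was found in 10 of the 20 tested members (50.0%), against 8.28% of the 9644 tested genes. The genes were chosen as p53 targets, so this is a description of them, and a match is not a measured binding site. The pairs of Cdkn1a and Ccng1 are shown because these are the tested members in which a pair was found. The Cdkn1a stretch is chr17:29090868-29090975 on the plus strand. Its pair starts 51 bases before the annotated start of the upstream Cdkn1a window. The downstream Cdkn1a window, chr17:29093519-29093818, belongs to another annotated start and held 0 pairs and 0 exact half-sites. The Ccng1 stretch is chr11:40755402-40755536 on the minus strand, with the pair starting 195 bases before its annotated start. Each stretch is written 5′ to 3′ on the gene's strand, has 1 mismatch to the motif, and carries the pair in capitals.
Cdkn1a: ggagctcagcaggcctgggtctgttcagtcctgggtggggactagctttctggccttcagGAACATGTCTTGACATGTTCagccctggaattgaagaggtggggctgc
Ccng1: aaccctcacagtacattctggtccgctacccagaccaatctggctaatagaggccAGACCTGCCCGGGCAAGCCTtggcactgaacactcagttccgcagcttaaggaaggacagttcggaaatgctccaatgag

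Single half-sites are shown for Mdm2, the main feedback gene, for Ppm1d, a second one, for Bax, an apoptosis effector, and for Gadd45a, a stress gene, with the half-site in capitals. They lie at chr10:117710925-117710954 (minus strand), chr11:85311112-85311141 (plus strand), chr7:45467080-45467109 (minus strand) and chr6:67037428-67037457 (minus strand) of GRCm38.p6.
Mdm2: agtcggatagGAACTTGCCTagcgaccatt
Ppm1d: gggcgggggcGAGCTTGCTCttcttgactc
Bax: agcatatcccAGGCAAGCTTtgaacttgcg
Gadd45a: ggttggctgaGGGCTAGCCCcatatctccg

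Library totals lay between 17749533 and 18272622 counts, or 17.8 to 18.2 counts for each CPM (counts scaled to library size), and 13044 genes were tested. Setd1a itself was at 71.0, 75.3 and 73.5 CPM in control replicates 1, 2 and 3 and at 53.2, 68.7 and 56.3 CPM in the knockout replicates. Every knockout library lay below every control, with a log2 change of -0.30 ± 0.12 (SE; adjusted p = 0.426 in edgeR's quasi-likelihood test). Counts per gene cannot tell an intact transcript from a disrupted one, and 51.8% of the exonic bases are shared with Gm49388 on the same strand, so this is a weak check of the label. All 10 mesenchymal markers checked were expressed, summing to 9100, 8920 and 9370 CPM in control replicates 1, 2 and 3 and to 8870, 7700 and 7650 CPM in the knockout replicates. Of these 10, 9 had a log2 change below 0 (median -0.18), against 49.8% of all tested genes. At an unadjusted p under 0.05 in edgeR's test, 1 was lower without pairing, against 4.51% of all tested genes. When libraries of the same replicate number were compared (the replicate block), 5 were lower at that level, against 9.62%. Of the 10, 0 passed either adjusted test. Averaged over the 6 libraries, 8 of 10 macrophage markers lay under 1 CPM (Csf1r among them, though at 1.10 and 1.28 CPM in knockout replicates 1 and 2), and Adgre1, C1qa and C1qb were at 0 in all libraries; 9 of 10 endothelial markers averaged under 1 CPM (Vwf among them, at 1.10 CPM in knockout replicate 1), with Cldn5 and Erg at 0; of 8 T and NK cell markers 7 were at 0. The macrophage markers summed to between 8.85 and 9.77 CPM in the controls and between 9.69 and 15.9 CPM in the knockouts, and the endothelial markers to between 1.60 and 3.25 CPM and between 3.22 and 5.01 CPM; the part of these marker lists in the results below was not tested. Of 8 epithelial markers 6 averaged under 1 CPM, and Krt18 and Krt8 averaged 60.0 and 10.2 CPM in the controls. Counts from a culture cannot tell fewer cells of a kind from less RNA per cell.

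In edgeR's test 2 of the 29 tested p53 target genes were called, both higher in the knockout and only with pairing by replicate number. In edgeR's test without pairing, 0 of the 29 tested members passed an adjusted p under 0.05, as for all genes (0% higher and 0% lower), and 2 had an unadjusted p under 0.05, both higher, where 5.5% of all tested genes were higher and 4.51% lower at that level. With the replicate number as a block, which compares libraries of the same number, 2 of the 29 rose, the apoptosis genes Phlda3 and Pmaip1, and 0 fell; 1.43% of all tested genes rose and 0.851% fell in that test. At an unadjusted p under 0.05 the block gave 4 members higher and 0 lower, where 9.94% of all tested genes were higher and 9.62% lower. DESeq2 without pairing called 0 of the 29, against 133 of all 13044 tested genes. Before adjustment its p was under 0.05 for 2 members, both higher, against 572 rising and 534 falling among all tested genes. With limma-voom without pairing, 0 of the 29 and 0 of all tested genes were called. Its unadjusted p was under 0.05 for 2 members, both higher, against 676 rising and 597 falling among all tested genes. The median log2 change of the 29 was 0.05, against 0.00 for all tested genes, and the range ran from -0.20 to 1.07. Of the 29, 19 had a log2 change above 0 (65.5%), against 50.2% of all tested genes, and 10 were below 0 (34.5%, against 49.8%). The change exceeded 1.5-fold in 2 members (6.9%), against 6.63% of all tested genes.

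**Figure D1:**
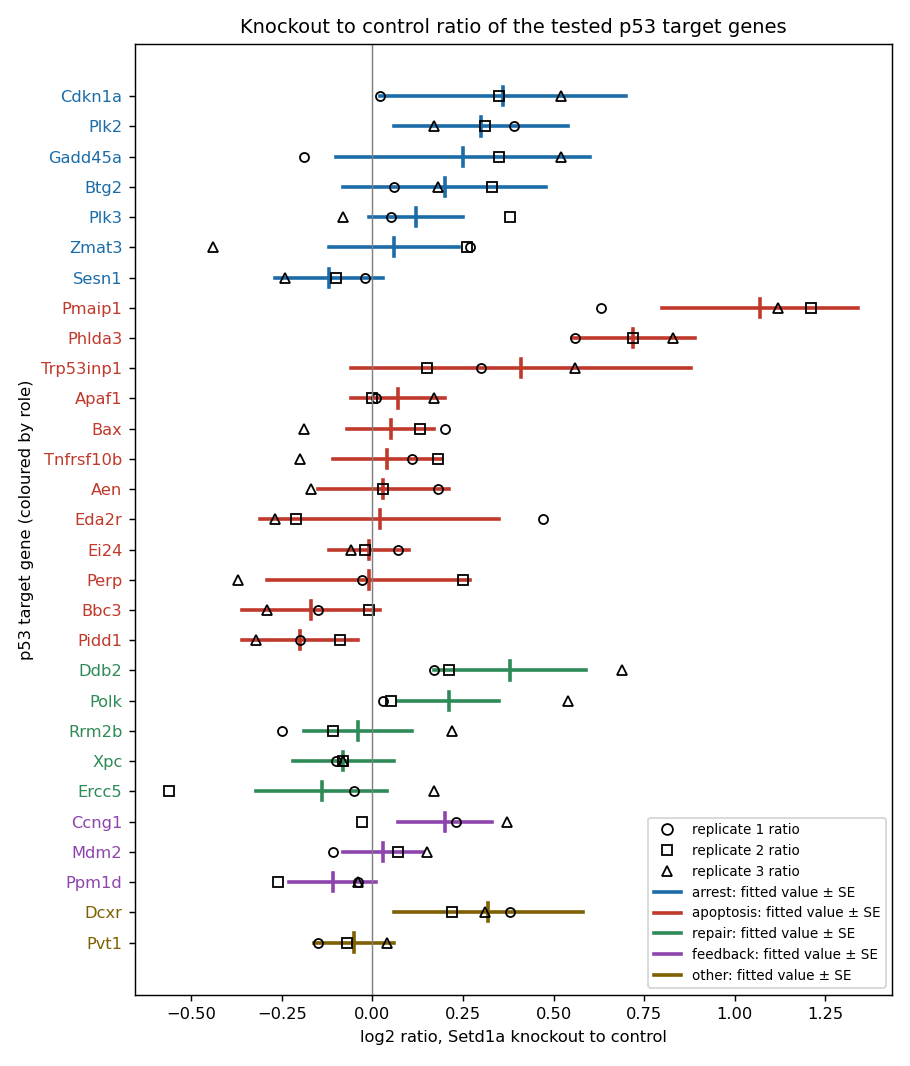
Log2 ratio of knockout to control (x axis) for each of the 29 tested p53 target genes (y axis, coloured by role). Open symbols are the ratios within replicates 1, 2 and 3, and the coloured bar is the fitted log2 change ± SE without pairing. Pmaip1 at 1.07 and Phlda3 at 0.72 stand to the right with all 3 ratios above 0.5, while the fitted values of the other members lie between -0.20 and 0.41.

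The libraries of the 2 groups overlapped in most members. In 4 members every knockout library lay above every control library (13.8%, against 7.49% of all tested genes), namely Phlda3, Pmaip1, Ddb2 and Polk, and in 0 members every knockout library lay below (7.77% of all tested genes). Within replicate numbers, 10 members were higher in the knockout in all 3 pairs (34.5%, against 19.9%) and 5 were lower in all 3 (17.2%, against 21.6%). The spread between libraries of 1 group was close to that of other genes: the median range over 3 libraries was 0.31 log2 units in the controls and 0.39 in the knockouts, and 0.31 and 0.36 for all tested genes.

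**Figure D2:**
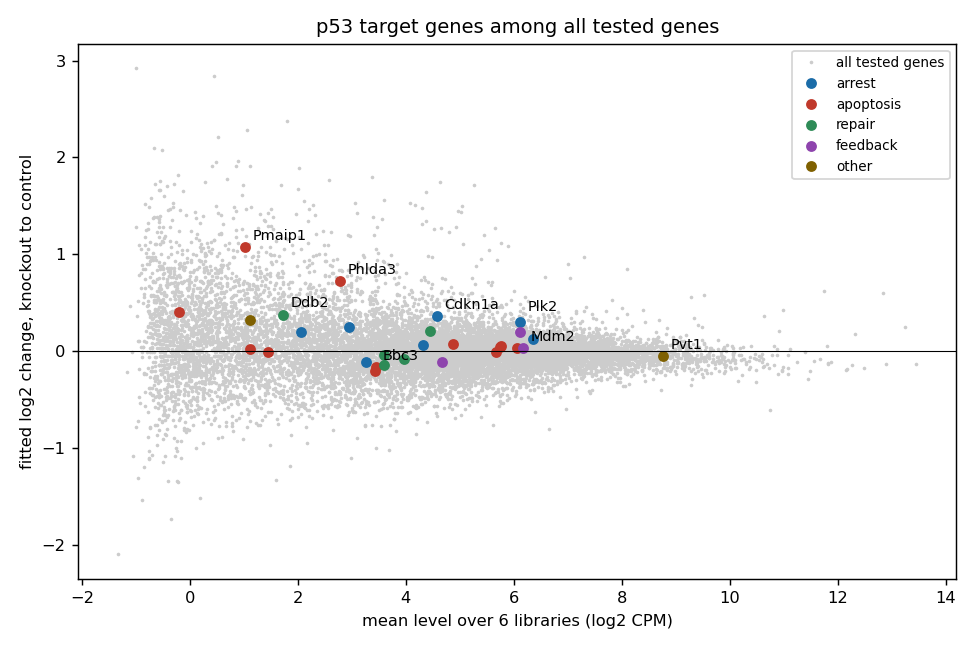
Fitted log2 change of knockout to control (y axis) against the mean level over 6 libraries in log2 CPM (x axis) for 13044 tested genes (grey) and the 29 tested p53 target genes (coloured by role). Pmaip1 and Phlda3 are the highest members, at low to middle level, where other tested genes reach larger changes in both directions.

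Among the arrest genes, Cdkn1a (ENSMUSG00000023067, chromosome 17, 29090976 to 29100727 of GRCm38, plus strand) encodes p21, the cyclin-dependent kinase inhibitor through which p53 stops the cell cycle. It stood at 17.2, 18.3 and 31.7 CPM in control replicates 1, 2 and 3 and at 17.4, 23.4 and 45.4 CPM in the knockout replicates. The groups overlapped widely, and replicate 3 was the highest library of each group, at 1.79 times the mean of replicates 1 and 2 in the controls and 2.23 times in the knockouts. The log2 change was 0.36 ± 0.34 (SE; adjusted p = 0.831 in edgeR's test without pairing) and 0.31 ± 0.12 with the replicate block (adjusted p = 0.193). Without knockout replicate 3 the unpaired log2 change was -0.13, and without both libraries of replicate 1 the blocked test called the gene higher (log2 change 0.44, adjusted p = 0.0216), so Cdkn1a depended on single libraries; its adjusted p ranged from 0.0216 to 0.999 over 18 alternatives. Of its exonic bases, 7.68% are shared with AC167363.2 on the other strand, whose reads cannot be told apart without the strand setting.

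Btg2, an antiproliferative transcription cofactor, and Gadd45a, a stress sensor that inhibits the mitotic kinase complex, also had their highest library in replicate 3. Btg2 was at 3.38, 3.01 and 5.21 CPM in control replicates 1, 2 and 3 and at 3.52, 3.83 and 5.94 CPM in the knockout replicates. Gadd45a was at 8.85, 4.24 and 9.19 CPM in the controls and at 7.76, 5.44 and 13.3 CPM in the knockouts. In both genes replicate 3 was the highest library of each group, and neither change passed either test (log2 changes of 0.20 ± 0.28 and 0.25 ± 0.35, SE). Both fell below 0 without knockout replicate 3, to -0.07 and -0.17. Of the exonic bases of Gadd45a, 19.1% are shared with E230016M11Rik on the other strand.

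**Figure D3:**
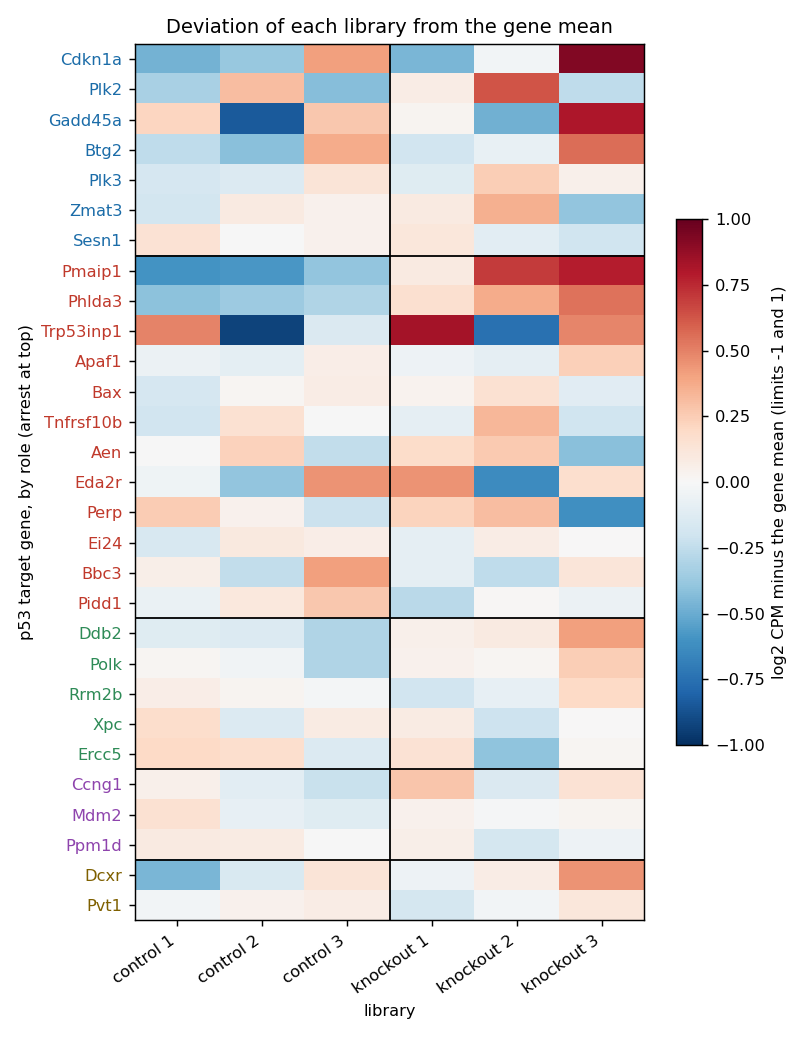
Log2 CPM of each library minus the mean over 6 libraries (colour, red above and blue below) for the 29 tested p53 target genes (rows, by role) in the 3 control and 3 knockout libraries (columns). Cdkn1a, Btg2 and Gadd45a are reddest in replicate 3 of both groups, whereas Phlda3 and Pmaip1 are blue in all controls and red in all knockouts.

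Plk2, a polo-like kinase induced by stress, had the smallest unadjusted p of the arrest genes. Its level was 55.4, 85.9 and 51.5 CPM in control replicates 1, 2 and 3 and 72.9, 107 and 58.1 CPM in the knockout replicates, so replicate 2 was highest in each group and the groups overlapped. Within each replicate number the knockout was higher, by 0.39, 0.31 and 0.17 log2 units. The log2 change was 0.30 ± 0.24 (SE; adjusted p = 0.776 in edgeR's test without pairing) and 0.30 ± 0.08 with the block (adjusted p = 0.0867). Without knockout replicate 2 the unpaired value was 0.04, and without control replicate 2 it was 0.57. Its relative Plk3 lay between 72.9 and 89.8 CPM in the controls and between 75.5 and 97.2 CPM in the knockouts. Sesn1, which restrains growth signalling through mTORC1, had a log2 change of -0.12 ± 0.15 and Zmat3, an RNA-binding protein, one of 0.06 ± 0.18 (SE). As a group the 7 arrest genes had 6 log2 changes above 0 (85.7%, against 50.2% of all tested genes). Their median was 0.20, and 0 passed either edgeR test. The log2 changes of Cdkn1a, Btg2, Gadd45a, Plk3 and Zmat3 reached or crossed 0 when libraries were left out.

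The apoptosis genes held the 2 members called higher with the replicate block. Phlda3 (ENSMUSG00000041801, chromosome 1, 135766119 to 135769136, plus strand) encodes a small lipid-binding protein that restrains the survival kinase Akt. It stood at 5.09, 5.25 and 5.49 CPM in control replicates 1, 2 and 3 and at 7.54, 8.71 and 9.84 CPM in the knockout replicates. The controls lay close together and every knockout library was above all of them (exact two-sided permutation p = 0.1, the smallest that 3 against 3 can give). The rise was 1.64-fold, a log2 change of 0.72 ± 0.14 (SE) with the replicate block (adjusted p = 0.0363 in edgeR's test) and 0.72 ± 0.17 without it (adjusted p = 0.206). Over 18 alternatives the log2 change stayed between 0.62 and 0.82, while the adjusted p ranged from 0.00221 to 0.542 and passed 0.05 in 3. The call was lost in the blocked test without replicate 2 (adjusted p = 0.108) and without replicate 3 (0.104). None of the exonic bases of Phlda3 are shared with another annotated gene.

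The upstream window of Phlda3 is shown as that of the called member with a sequence at hand, chr1:135765835-135766084 on the plus strand of GRCm38.p6, with each CG dinucleotide in capitals. It holds 18 CG dinucleotides in 250 bases and has no match to the half-site. The ratio of observed to expected CG was 0.687 in the whole window of 300 bases, against a median of 0.741 in the tested members and 0.779 in all tested genes with a window. The upstream Cdkn1a window with the half-site pair, at 0.0892, was the lowest of the members' windows.
Phlda3: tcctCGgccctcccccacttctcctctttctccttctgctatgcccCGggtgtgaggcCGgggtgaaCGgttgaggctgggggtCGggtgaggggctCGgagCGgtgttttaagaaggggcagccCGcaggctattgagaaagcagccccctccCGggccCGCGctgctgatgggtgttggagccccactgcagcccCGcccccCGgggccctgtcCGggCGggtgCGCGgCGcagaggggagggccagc

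Pmaip1 (ENSMUSG00000024521, chromosome 18, 66458533 to 66465565, plus strand) encodes Noxa, a BH3-only protein that neutralises the survival factor Mcl-1. Its counts were 23, 23 and 26 in control replicates 1, 2 and 3 and 37, 56 and 60 in the knockout replicates, or 1.27, 1.28 and 1.46 CPM against 2.04, 3.11 and 3.30 CPM. The groups did not overlap, with knockout replicate 1 the lowest of its group, and counting error is wide at this depth. The rise was 2.08-fold with the replicate block, a log2 change of 1.06 ± 0.23 (SE; adjusted p = 0.0471 in edgeR's test), and the log2 change was 1.07 ± 0.27 without the block (adjusted p = 0.222). Over 17 alternatives the log2 change stayed between 0.94 and 1.26 and the adjusted p between 0.00312 and 0.542, passing 0.05 in 2. The call was lost in the blocked test without replicate 2 (adjusted p = 0.174) or without replicate 3 (0.130), and it was not made by limma-voom (0.0524) or DESeq2 (0.227) with the same block. Pmaip1 is also known as a gene that interferon can induce. The mean level of 20 interferon-induced genes was 4.18, 3.62 and 2.89 log2 CPM in the controls and 3.47, 5.48 and 5.42 log2 CPM in the knockouts. In edgeR's test without pairing, 17 of the 20 were higher at an unadjusted p under 0.05, against 5.5% of all tested genes. With the block 14 were higher at that level, against 9.94%. The block called 3 of the 20 higher (15.0%, against 1.43% of all tested genes). The median log2 ratio of the 20 was -0.82, 1.87 and 2.60 in replicates 1, 2 and 3. The log2 ratio of Pmaip1 was 0.63, 1.21 and 1.12 in the same replicates, above 0 also in replicate 1, where 3 of the 20 interferon-induced genes were above 0 (Cxcl10, Ifih1 and Oasl1, which are the 3 called with the block); their part in its rise was not tested.

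**Figure D4:**
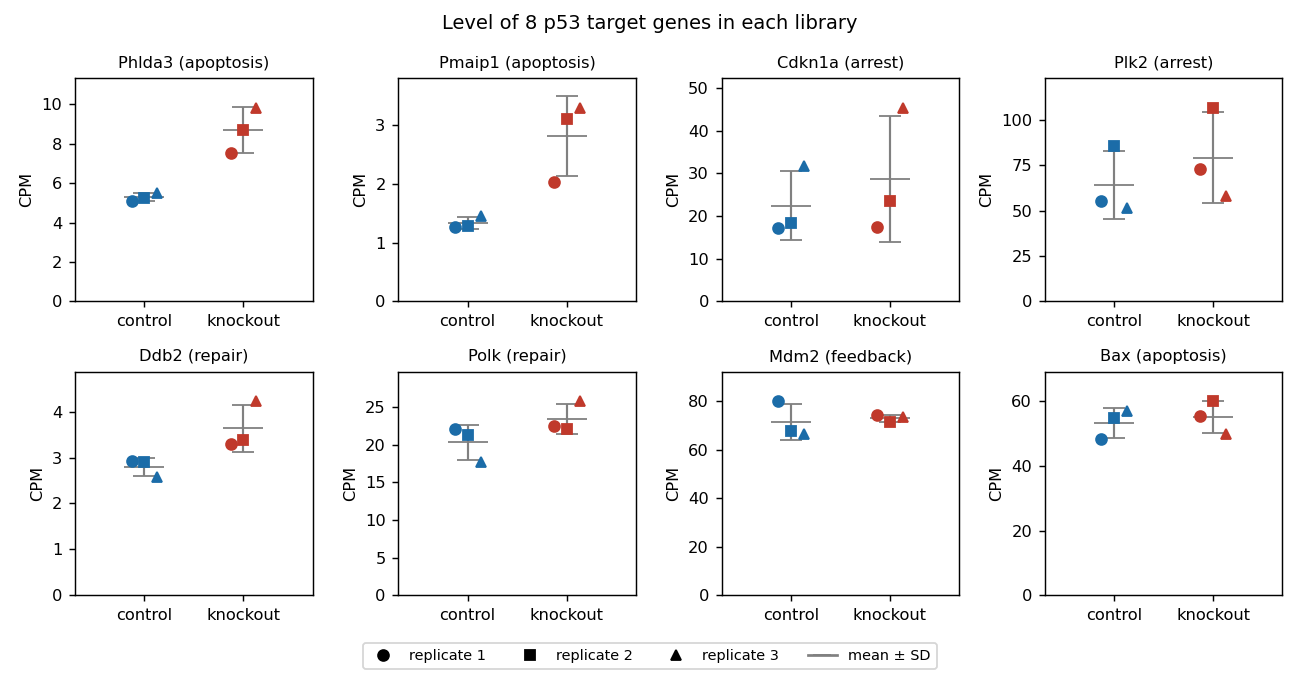
Level in CPM (y axis, from 0) of 8 p53 target genes in the 3 control (blue) and 3 knockout (red) libraries. Symbols mark the replicate number and grey bars the mean ± SD. Phlda3 and Pmaip1 separate the groups, Cdkn1a and Plk2 follow the replicate number, and Mdm2 and Bax overlap.

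Bax, Bbc3, Apaf1 and Pidd1, which act at the mitochondrial and caspase steps of apoptosis, did not pass either test. Bax, which forms pores in the outer mitochondrial membrane, was at 48.2, 54.8 and 56.9 CPM in control replicates 1, 2 and 3 and at 55.4, 60.0 and 50.0 CPM in the knockout replicates. Its groups overlapped, with 1 knockout library above all controls and 1 control below all knockouts, and its log2 change was 0.05 ± 0.12 (SE; adjusted p = 0.959 in edgeR's test without pairing). Of its exonic bases 12.2% are shared with Gm45808 on the same strand. Bbc3, which encodes the BH3-only protein Puma, was at 11.2, 9.04 and 14.3 CPM in the controls and at 10.1, 8.99 and 11.7 CPM in the knockouts. It lay slightly lower in the knockout in each replicate, and its log2 change was -0.17 ± 0.19 (SE; adjusted p = 0.884). Apaf1, the scaffold of the apoptosome, had a log2 change of 0.07 ± 0.13, and Pidd1, the scaffold of the caspase-2 complex, one of -0.20 ± 0.16 (SE).

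The death receptor branch was uneven in level. For Tnfrsf10b, the mouse receptor for TRAIL, the controls averaged 53.3 ± 6.33 CPM and the knockouts 54.8 ± 11.0 CPM (SD, n = 3). Fas was near the floor of detection, with 2, 3 and 2 counts in the controls and 2, 1 and 1 in the knockouts, so no fold change is given. For Eda2r, a receptor for ectodysplasin A2, the controls averaged 2.12 ± 0.629 CPM and the knockouts 2.15 ± 0.751 CPM (SD, n = 3). Neither test was passed by the nuclease gene Aen (log2 change 0.03 ± 0.18), the autophagy-linked Ei24 (-0.01 ± 0.11), the desmosomal membrane protein gene Perp (-0.01 ± 0.28) and Trp53inp1, a p53 cofactor (0.41 ± 0.47, SE). Trp53inp1 held between 7 and 24 counts per library. As a group the 12 tested apoptosis genes had 8 log2 changes above 0 (66.7%, against 50.2% of all tested genes) and a median of 0.03.

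Of the 5 repair genes, 0 passed either test, and their median log2 change was -0.04. Ddb2, the DNA damage sensor of global nucleotide excision repair, was at 2.93, 2.90 and 2.58 CPM in control replicates 1, 2 and 3 and at 3.30, 3.39 and 4.23 CPM in the knockout replicates. The groups did not overlap, but the log2 change of 0.38 ± 0.21 (SE) did not pass edgeR's test without pairing (adjusted p = 0.621) or with the block (0.327). Of its exonic bases 23.8% are shared with Acp2 on the other strand, so its level is uncertain. Polk, a translesion DNA polymerase, was at 22.1, 21.3 and 17.7 CPM in the controls and at 22.5, 22.1 and 25.8 CPM in the knockouts. Its highest control and its lowest knockout library agree to the last digit given, and replicate 3 supplied most of the difference. Xpc, which recognises damage with Ddb2, had a log2 change of -0.08 ± 0.14, the excision nuclease gene Ercc5 -0.14 ± 0.18 and Rrm2b, the p53-induced ribonucleotide reductase subunit, -0.04 ± 0.15 (SE).

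The feedback genes also overlapped between the groups. Mdm2 (ENSMUSG00000020184, chromosome 10, 117688875 to 117710758, minus strand), the ligase that marks p53 for destruction, was at 80.0, 67.9 and 66.3 CPM in control replicates 1, 2 and 3 and at 74.2, 71.3 and 73.5 CPM in the knockout replicates. All knockout libraries lay within the control range, and the log2 change was 0.03 ± 0.11 (SE; adjusted p = 0.974 in edgeR's test without pairing). Ccng1, which encodes cyclin G1, a partner of protein phosphatase 2A that acts on Mdm2, was at 71.9, 64.7 and 59.5 CPM in the controls and at 84.3, 63.1 and 77.1 CPM in the knockouts. Knockout replicates 1 and 3 lay above all controls and replicate 2 among them, with a log2 change of 0.20 ± 0.13 (SE; adjusted p = 0.709). For Ppm1d, the phosphatase Wip1 that removes activating phosphates from p53, the controls averaged 26.2 ± 1.04 CPM and the knockouts 24.3 ± 1.98 CPM (SD, n = 3).

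Of the other members, the long noncoding RNA Pvt1, a neighbour of Myc, had the highest counts, at 429, 450 and 459 CPM in control replicates 1, 2 and 3 and 386, 429 and 473 CPM in the knockout replicates. Its groups overlapped (log2 change -0.05 ± 0.11, SE). Dcxr, a sugar reductase, was at 1.49, 1.84 and 2.24 CPM in the controls and at 1.98, 2.16 and 2.80 CPM in the knockouts. It was higher in the knockout in each replicate, with overlapping groups and a log2 change of 0.32 ± 0.26 (SE; adjusted p = 0.793 in edgeR's test without pairing). Cd80 had 0, 5 and 0 counts in the controls and 2, 2 and 4 in the knockouts, which allows no comparison.

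Levels differed between the members far more than between the groups. Per kilobase of exon, the control level was 63.7 CPM for Pvt1, 33.8 for Bax, 31.2 for Plk3, 18.6 for Ccng1, 14.3 for Plk2 and 14.0 for Mdm2. Ranked by the mean per kilobase over all 6 libraries, Pvt1 lay at the 94.3rd percentile of all tested genes and Mdm2 at the 72.4th. Cdkn1a, at 6.30 CPM per kilobase in the controls, lay at the 55.8th percentile of that ranking, and Bbc3, at 5.43, at the 48.2nd. Of the members called higher with the replicate block, Phlda3 was at 3.38 CPM per kilobase in the controls and 5.58 in the knockouts, and Pmaip1 at 0.490 and 1.03. The lowest tested members in the controls were Eda2r at 0.360 and Trp53inp1 at 0.109, with Trp53inp1 at the 1.63rd percentile of the ranking over 6 libraries. Apoptosis genes stood at both ends of this order. Neighbours such as Plk2 and Mdm2 differed by less than the spread between control libraries.

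The rest of the pathway was read from lists of regulators, further targets and cell cycle genes. Of 25 regulators of p53, 23 were tested and 0 passed either edgeR test. Of the 23, 11 had a log2 change above 0 (47.8%, against 50.2% of all tested genes), and the median was -0.02. Trp53, which encodes p53, was at 7.36, 7.93 and 6.33 CPM in control replicates 1, 2 and 3 and at 8.43, 10.8 and 8.30 CPM in the knockout replicates. Every knockout Trp53 value lay above every control, as in 1 of the 23 regulators (4.35%, against 7.49% of all tested genes). The log2 change of Trp53 was 0.35 (adjusted p = 0.558 in edgeR's test without pairing and 0.189 with the block). The p53-binding apoptosis cofactor gene Trp53bp2 and the DNA damage kinase gene Prkdc each had a log2 change of -0.25, with adjusted p-values of 0.513 and 0.540. These were the 2 regulators of the 23 in which every knockout library lay below every control (against 7.77% of all tested genes). The p53 relative Trp73 had 0 counts in all libraries. Of 26 further p53 targets, 24 were tested, and 0 passed the test without pairing. The detoxifying hydrolase gene Ephx1 had a log2 change of 0.61 and an adjusted p of 0.459 without the block. The median of the 24 was 0.11.

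Cell cycle genes that p21 is known to lower through the DREAM repressor mostly had log2 changes just below 0. Of the 20, all tested, 18 had a log2 change below 0, against 49.8% of all tested genes. The median was -0.07, and 0 passed either test. The part of p21 in these values was not tested. For the cyclin gene Ccnb2 the controls averaged 115 ± 10.4 CPM and the knockouts 93.1 ± 17.3 CPM (SD, n = 3). Its groups overlapped, and its adjusted p in edgeR's test was 0.498 without pairing and 0.0662 with the block. Ccna2 averaged 433 ± 38.6 and 379 ± 27.2 CPM (SD, n = 3), also with overlapping groups (adjusted p = 0.631 and 0.184 in the same tests).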

How the data were processed

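The authors deposited raw counts, whole reads per Ensembl gene for 55471 genes in 6 libraries. Per the submitters' processing notes, STAR, featureCounts, DESeq and the build mm10 were used; no source used here gives versions, roles or the strand setting. Symbols and positions came from GENCODE M21 (GRCm38), which matched 55230 identifiers. The tests on the counts used edgeR 4.0.16 under R 4.3.3 (scaling by TMM, low-count filter by group, quasi-likelihood test, Benjamini-Hochberg adjustment over 13044 genes, threshold 0.05), with DESeq2 1.42.0 and limma 3.58.1 as alternatives. The edgeR steps, with and without the replicate block, were also run on simulated data, and the alternatives were not. CPM used TMM-adjusted library sizes, and logged CPM a prior count of 2. The SE given with an edgeR log2 change is its absolute value divided by the square root of the test's F statistic. It therefore restates that test and is not a separate measure of spread. Total counts lay between 17749533 and 18272622 per library.

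Deviations from the group means correlated at 0.15, 0.46 and 0.38 between libraries of the same replicate number, each above 0.1, so the numbers were treated as pairs from the data alone. Between libraries of different numbers they correlated at -0.45 to 0.053. Deviations within a group of 3 sum to 0, so these correlations are not independent of each other. The pairing was taken from the same counts that the blocked test used, and the labels do not give it. Within groups, libraries differed beyond sampling noise (chi-square per degree of freedom between 19.2 and 35.5). The genes and lists were chosen with earlier results of these data known. Values in every library are given for Cdkn1a, Mdm2, Bax, Bbc3, Pmaip1, members called or not overlapping, the smallest raw p of each role, and Trp53; the other lists name up to 2 genes by raw p. Values in every library for Btg2, Gadd45a, Pvt1, Fas and Cd80 were added after they were seen. The blocked result of the further p53 targets is not reported here.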

Additional observations from a re-analysis of the deposited data

How the results depend on the processing

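Without pairing, edgeR called 0 of 13044 genes and 0 of the 29 tested p53 target genes. The replicate block gave 298 genes and 2 members, and it changed the call of no other member. DESeq2 gave 133 genes and, with the block, 314, with 0 members in each, and limma-voom with the block gave 321 genes and 1 member, Phlda3; the versions with the block were chosen after seeing the data. Without a low-count filter 74 genes and 0 members were called. RLE scaling, library totals, limma-voom and a minimum mean of 5 CPM gave 0 genes and 0 members. Leaving out libraries singly, or both of a replicate number in the blocked test, gave 0 to 714 genes and 0 to 3 members (3 without replicate 1, 0 without replicate 2 or 3), and the median log2 change lay between 0.03 and 0.10. The cause of these differences was not tested. Pmaip1, Btg2, Ddb2, Dcxr, Eda2r, Perp and Trp53inp1 were filtered out by the minimum of 5 CPM.

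Members whose log2 change crossed 0 in those leave-outs, none of them called in the one where it crossed, ranged as follows: Cdkn1a from -0.13 to 0.70, Btg2 from -0.07 to 0.47, Gadd45a from -0.17 to 0.51, Plk3 from 0.00 to 0.22, Zmat3 from -0.11 to 0.25, Bbc3 from -0.31 to 0.02, Bax from -0.03 to 0.15, Tnfrsf10b from -0.13 to 0.14, Eda2r from -0.26 to 0.28, Aen from -0.09 to 0.21, Perp from -0.18 to 0.22, Ei24 from -0.09 to 0.05, Apaf1 from -0.04 to 0.14, Rrm2b from -0.19 to 0.06, Xpc from -0.16 to 0.00, Ercc5 from -0.31 to 0.07, Mdm2 from -0.03 to 0.12, Pvt1 from -0.13 to 0.03. Eda2r was at 0.00 with limma-voom, Perp at 0.01 and Ei24 at 0.02 with library totals, and Ei24 at 0.00 with the minimum of 5 CPM. Counting error limits Pmaip1, Trp53inp1, Fas and Cd80.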
